A study of Mus musculus with 12 samples.

Results

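Progenitor libraries were 3 of 12 libraries of sorted cells, which flow cytometry separated out of the aorta with its perivascular fat. The tissue came from wild-type CD-1 mouse pups at postnatal day 3, of both sexes. The members were taken from the sample titles, and the other 9 libraries hold the cells labelled intermediate, preadipocyte and smooth muscle, 3 libraries each. Every group had the same strain, age, tissue and collagenase and dispase digestion, and no treatment or transgene is named in the labels. The contrast described here set the progenitor libraries against those 3 other populations with equal weight, and then against each of them alone, to find the genes that set progenitors apart from every other population. The surface proteins used in the sort are not given in the labels, and neither is the number of pups behind a library. A marker on the cell surface may therefore be high or low because the sort chose it.

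Connective tissue cells that carry Pi16, Ly6a (which encodes Sca-1), Cd34 and Pdgfra lie in the adventitia of vessels and in the fibrous septa of fat. In mice they are known as a reserve of stromal cells that can give rise to preadipocytes and fibroblasts. They are also known for secreting matrix, growth factors and chemokines that act on neighbouring vessel, fat and immune cells. Smooth muscle cells of the aortic wall contract, and preadipocytes are cells committed to forming fat cells.

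Libraries held 14778738 to 17123109 counts in progenitor and 11701825 to 15739798 in the other samples, over 36512 genes, and 21285 genes were counted well enough for a test. Levels below are CPM, a count scaled to a common library size, after TMM scaling, a scaling that assumes that most genes do not differ. TMM factors ran from 0.871 to 0.873 for progenitor, from 1.17 to 1.20 for smooth muscle, from 1.07 to 1.19 for preadipocyte and from 0.823 to 0.858 for intermediate libraries. Some content moved with the populations. Genes of olfactory and vomeronasal receptors, 1149 in the table, held 47.2 to 101 CPM by library size in progenitor and 745 to 1078 in smooth muscle libraries. Preadipocyte replicate 3 stood apart with 1.84% of its counts on haemoglobin genes, which took 0.00803% to 0.0253% in progenitor libraries. The Lars2 gene held 2026 to 3755 CPM by library size in progenitor and 10300.0 to 15820.0 in intermediate libraries. In the tests below, receptor genes were 97 (2.39%) of the 4057 genes lower than the mean of the other populations. They were 6 (0.857%) of the 700 lower and 0 of the 885 higher than in every population, against 1.21% of all genes tested. Any further part of these contents in the results was not tested. The labels do not say whether replicates are separate litters or sorts. The p-values therefore cover only the spread among these samples, which could be technical.

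Of the 21285 genes tested, 4010 (18.8%) were higher and 4057 (19.1%) lower in progenitor libraries than the mean of the other 3 populations, by edgeR's quasi-likelihood test at a Benjamini-Hochberg adjusted p under 0.05. Being apart from every population was a narrower class. In it, a gene had to pass the test in the same direction against intermediate, preadipocyte and smooth muscle libraries alike, and 885 genes (4.16%) were higher and 700 (3.29%) lower in this sense. At a fitted difference of at least 2-fold against each, 311 (1.46%) were higher and 501 (2.35%) lower. The other 3125 genes that were higher than the mean failed against at least 1 population, and 312 of these were called lower in progenitor libraries than in that population. The 3 pairwise contrasts share the progenitor libraries, so a gene called in all 3 is 1 finding and not 3. Without progenitor replicate 1, 2671 genes were lower than the mean and 445 lower than in every population.

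The balance of higher and lower genes depended on the scaling. With library size alone, 2503 genes were higher and 7223 lower than the mean, 629 higher and 1001 lower than in every population, and 229 and 625 at least 2-fold so. With TMM factors taken over all genes in place of those tested, the same pairs were 6434 and 2761, 1545 and 497, and 509 and 415. With smooth muscle replicate 3 as the TMM reference, 735 were higher and 899 lower than in every population. Over all genes tested, the median log2 difference from the mean moved by -0.26 with library size alone and by 0.25 with TMM factors over all genes. Where a single log2 fold change is given for a gene below, it is the smallest in size of the 3 pairwise ones, with its SE, and it is named with the population it was taken against.

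The population nearest to progenitor was most often intermediate. It came next in level for 506 (57.2%) of the 885 higher genes, preadipocyte for 201 (22.7%) and smooth muscle for 178 (20.1%). Among the 700 lower genes the next population was intermediate in 320 (45.7%), preadipocyte in 316 (45.1%) and smooth muscle in 64 (9.14%). The 3 progenitor libraries lay outside the range of the other 9 in 867 of the higher and 604 of the lower genes. Over all genes tested, 7.53% lay above and 4.60% below all other libraries. Higher genes were also better counted: 531 (60.0%) of them had a mean log2 CPM of at least 4, against 165 (23.6%) of the lower genes and 37.4% of all genes tested. At least 4-fold against each population, 70 genes were higher and 239 lower. Of the 501 genes at least 2-fold lower against each, 36 (7.19%) had a mean log2 CPM of at least 4. Of the 311 at least 2-fold higher, 125 (40.2%) did. With each library left out in turn, 254 of these 501 and 260 of these 311 were still called against every population.

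**Figure D1:**
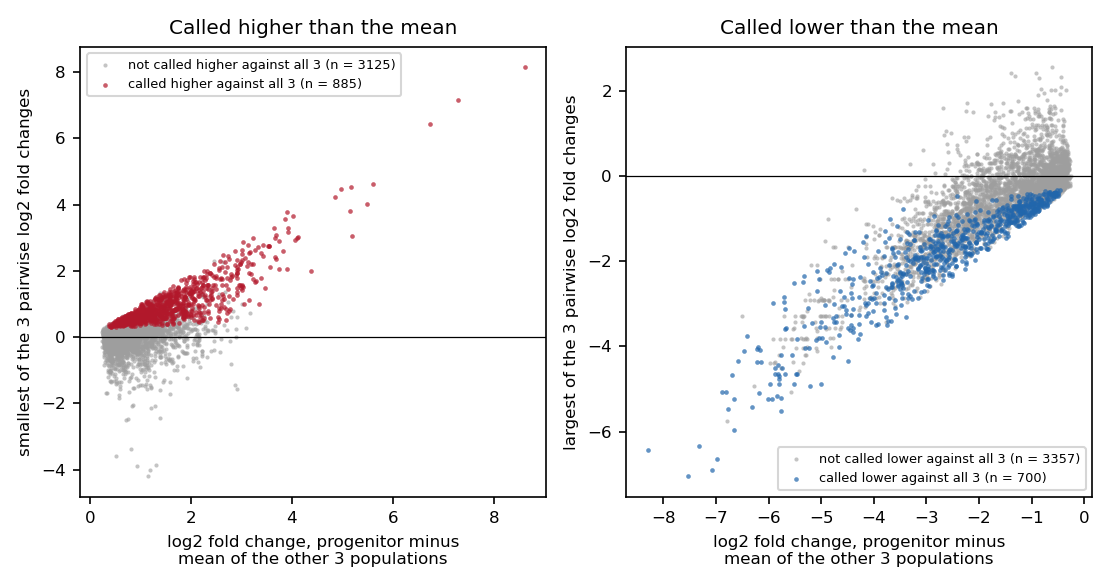
Each point is a gene called higher (left, 4010 genes) or lower (right, 4057 genes) in progenitor libraries than the mean of the other 3 populations. The x axis gives that log2 fold change and the y axis the pairwise log2 fold change least favourable to the call, with the 885 and 700 genes called against every population in colour; many grey points lie on the far side of 0.

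Most listed markers of such progenitors were the highest in the libraries labelled so. The list was written with earlier results of these data known, so its counts are no independent check of the label. Of 27 genes listed as progenitor markers, 26 were higher than the mean and 19 were higher than in every other population. Of these 19, 16 were so by at least 2-fold against each. The shares over all genes tested were 18.8%, 4.16% and 1.46%. The median log2 fold change of the list was 2.91 against the mean, where that of all genes tested was -0.08. All 19 calls were kept with each library left out in turn.

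Ly6a and Ly6c1, which encode small surface proteins anchored by glycolipid, separated the populations by the widest fitted folds. Ly6a stood at 754, 847 and 642 CPM in progenitor libraries, against 1.58, 0.891 and 1.48 in smooth muscle, 4.53, 1.09 and 2.23 in preadipocyte and 1.69, 2.18 and 2.09 in intermediate libraries. Ly6c1 stood at 214, 237 and 194 CPM in progenitor libraries, against 1.51, 1.08 and 1.13 in smooth muscle, 2.16, 0.846 and 1.06 in preadipocyte and 1.6, 1.43 and 1.45 in intermediate libraries. Neither gene had a library outside the progenitor group above 5 CPM, and the smallest log2 fold change was 8.14 ± 0.36 against preadipocyte for Ly6a (SE; largest of 3 adjusted p = 1.13e-09) and 7.16 ± 0.26 against intermediate for Ly6c1 (largest adjusted p = 3.68e-10). Both lie on mm10 chromosome 15, Ly6a at 74994877 to 74998031 and Ly6c1 at 75044018 to 75048830, inside a family of similar genes that can share reads.

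Pi16, a secreted peptidase inhibitor that marks adventitial stroma, was at 834, 965 and 717 CPM in progenitor, 7.03, 9.41 and 13.4 in smooth muscle, 11.7, 17.1 and 7.19 in preadipocyte and 101, 92.7 and 109.7 in intermediate libraries. Intermediate libraries came next and lay well below every progenitor library, with a log2 difference of 3.05 ± 0.26. Scara5, a scavenger receptor for ferritin, was at 773, 781 and 743 CPM in progenitor, 12.3, 15.2 and 16.3 in smooth muscle, 34.1, 53.1 and 35.5 in preadipocyte and 31.9, 30.7 and 28.7 in intermediate libraries. No other population reached 54 CPM, and the smallest log2 fold change was 4.23 ± 0.18 against preadipocyte (SE; largest adjusted p = 4.24e-10). Cd34, a sialomucin of stromal, endothelial and blood stem cells, was at 1233, 1183 and 1096 CPM in progenitor, 80.3, 101 and 97 in smooth muscle, 80.1, 100.3 and 61.7 in preadipocyte and 269, 249 and 251 in intermediate libraries. Clec3b, which encodes the plasminogen-binding protein tetranectin, was at 260.2, 277 and 318 CPM in progenitor, 5.95, 9.1 and 11.5 in smooth muscle, 18.8, 11.1 and 13.2 in preadipocyte and 36.7, 33.2 and 37.6 in intermediate libraries. Both were highest in every progenitor library, next in intermediate libraries, and differed from these by 2.19 ± 0.16 and 2.99 ± 0.22 on the log2 scale.

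Other markers were higher by smaller steps. Cd248, the stromal glycoprotein endosialin, was at 801, 834 and 810.4 CPM in progenitor and 232, 232 and 242 CPM in intermediate libraries, its nearest population (log2 difference 1.79 ± 0.15). Pdgfra, a receptor for platelet-derived growth factors, was at 562, 492 and 517 CPM in progenitor, 303, 327 and 280.2 in intermediate and 32.6, 39.8 and 30.2 in smooth muscle libraries. The progenitor libraries lay above all others for Pdgfra, and the step from intermediate was 0.79 ± 0.16 on the log2 scale (adjusted p = 0.00221). Mfap5, a microfibril protein, fell into the same order, with means of 3234 ± 153 CPM in progenitor, 229.6 ± 25.9 in smooth muscle, 141 ± 15 in preadipocyte and 1474 ± 113 in intermediate libraries (SD, n = 3). The ligand genes Wnt2 and Bmp7 were low in level and still apart, Wnt2 at 31, 36.1 and 21.4 CPM in progenitor and at most 7 CPM elsewhere, and Bmp7 at 28.6, 26.2 and 27.1 CPM against at most 7 CPM elsewhere.

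Some listed markers were not particular to progenitors. Dpp4, a surface dipeptidase, was at 87.8, 93.3 and 98.5 CPM in progenitor libraries, against 71.9, 86.6 and 71.3 in smooth muscle, 2.59, 5.68 and 3.73 in preadipocyte and 5.7, 3.31 and 3.72 in intermediate libraries. Progenitor and smooth muscle libraries were both high and differed by 0.28 ± 0.21 on the log2 scale, which did not pass the test (adjusted p = 0.259). Thy1 was as high in intermediate libraries, at 6.42, 4.66 and 6.09 CPM against 6.99, 5.13 and 5.36 in progenitor. Efhd1 was at 22.9, 22.4 and 20.03 CPM in progenitor and 30.5, 23.7 and 31.3 CPM in smooth muscle libraries, and Procr, the protein C receptor, was higher in smooth muscle libraries with a log2 difference of -1.04 ± 0.18.

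**Figure D2:**
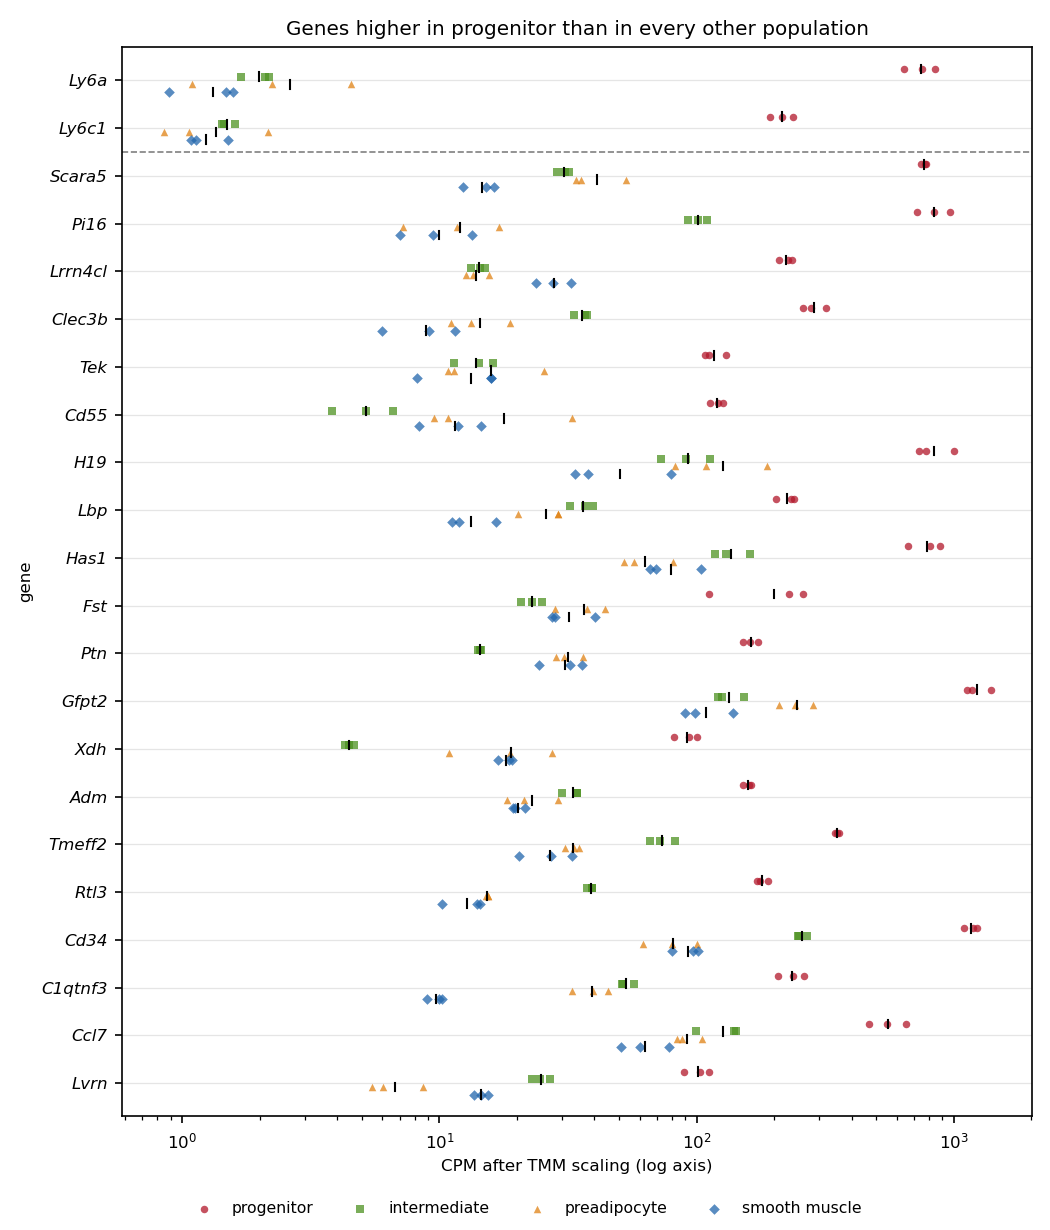
CPM after TMM scaling (log axis) of Ly6a, Ly6c1 and the 20 genes with the largest smallest fold against the 3 other populations, 1 point per library and a bar at each mean of 3. All progenitor points lie to the right of the other 9 points in each row, and for Fst 1 progenitor library lies well left of the other two.

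The 20 genes with the largest smallest fold, all with mean log2 CPM no lower than 4 and no overlap between libraries, came from several roles. Beside the markers Scara5, Pi16, Clec3b, Cd55 and Cd34 they held Has1 and Gfpt2, which act in making hyaluronan, the large sugar polymer of loose connective tissue. Has1, a hyaluronan synthase, was at 664, 881 and 809 CPM in progenitor, 65.6, 69.3 and 104 in smooth muscle, 57, 80.6 and 52.1 in preadipocyte and 118, 131 and 161 in intermediate libraries. Gfpt2, which makes glucosamine phosphate for its sugar precursors, was at 1180.2, 1125 and 1390.1 CPM in progenitor, 98.9, 90.5 and 138 in smooth muscle, 242, 284 and 209 in preadipocyte and 126, 121 and 153 in intermediate libraries. The progenitor libraries lay far above all others in both, with smallest log2 fold changes of 2.52 ± 0.21 against intermediate and 2.33 ± 0.18 against preadipocyte (largest adjusted p = 5.14e-07 and 2.87e-08). Uap1, Ugdh and Has2, which act on the same route, were taken from the progenitor marker and fibroblast lists after their values were seen, as no list for hyaluronan was made. Each was also higher than in every population: Uap1, which forms UDP-N-acetylglucosamine, by 1.03 ± 0.13 against preadipocyte, and Ugdh, which forms UDP-glucuronate, by 1.83 ± 0.14 against intermediate. Has2, a second synthase, was higher by 0.79 ± 0.18 against intermediate on the log2 scale. Its exons overlap the antisense transcript Has2os, whose reads cannot be told apart without strand.

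Tek, which encodes the angiopoietin receptor Tie2 best known from endothelium, was among the 20 as well. It stood at 130.2, 111 and 108 CPM in progenitor libraries, against 8.18, 15.8 and 15.8 in smooth muscle, 11.3, 25.4 and 10.8 in preadipocyte and 16.1, 14.2 and 11.4 in intermediate libraries. Every progenitor library was at least 4 times as high as any other, and the smallest log2 fold change was 2.88 ± 0.31 against preadipocyte (SE; largest adjusted p = 3.89e-06). Most other endothelial genes went the other way. Of 18 endothelial markers tested, Tek was the 1 that was higher than in every population and 11 were lower than in every population. The shares over all genes tested were 4.16% and 3.29%. Tie1, the sister receptor of Tek, was at 0, 0 and 0.201 CPM in progenitor and at 6.6, 14.6 and 7.56 CPM in smooth muscle, 16.4, 17.2 and 6.63 in preadipocyte and 13.4, 12.8 and 2 in intermediate libraries. Vwf, the von Willebrand factor of endothelium, was at 0.699, 1.09 and 2.28 CPM in progenitor and at 16.6, 81.7 and 23.5 CPM in smooth muscle, 80.9, 35.5 and 13.1 in preadipocyte and 40.1, 90.8 and 16.4 in intermediate libraries. Pecam1 was at 10.01, 12.2 and 10.4 CPM in progenitor libraries, below all others, and this call was lost without smooth muscle replicate 2 and with TMM factors taken over all genes. The Tek gene lies on mm10 chromosome 4 from 94739289 to 94874976 on the plus strand.

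Several secreted or signalling proteins made up most of the rest. Lbp, which binds bacterial lipopolysaccharide, was at 233, 203 and 239 CPM in progenitor, 11.2, 12 and 16.5 in smooth muscle, 29, 20.2 and 28.8 in preadipocyte and 39.4, 32.3 and 36.8 in intermediate libraries. Ptn, the heparin-binding growth factor pleiotrophin, was at 162, 173 and 152 CPM in progenitor and between 14 and 36 CPM in the other 9 libraries. Adm, the vasodilator peptide adrenomedullin, was at 152, 163 and 159 CPM in progenitor and between 18 and 35 CPM elsewhere. C1qtnf3, a secreted relative of adiponectin, was at 236, 207 and 262 CPM in progenitor and 51.5, 51.1 and 57.1 in intermediate libraries. Smallest log2 fold changes were 2.64 ± 0.18 for Lbp, 2.36 ± 0.15 for Ptn, 2.26 ± 0.16 for Adm and 2.14 ± 0.14 for C1qtnf3.

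Fst encodes follistatin, a secreted protein that binds activins. It was at 112, 259 and 228 CPM in progenitor, 27.5, 28.1 and 40.2 in smooth muscle, 37.4, 44.1 and 28.1 in preadipocyte and 25, 20.8 and 22.9 in intermediate libraries. All progenitor libraries were above the others, but replicate 1 was well below the other two, as it was for Gas1, Fgf18 and Igfbp3 below. Its smallest log2 fold change was 2.45 ± 0.26 against preadipocyte (SE; largest adjusted p = 1.23e-06). H19, an imprinted long noncoding RNA of fetal tissue, was at 776, 1003 and 730.0 CPM in progenitor, 33.6, 37.9 and 79.6 in smooth muscle, 187, 82.1 and 109 in preadipocyte and 91, 72.8 and 113 in intermediate libraries. Xdh, the xanthine oxidoreductase that makes uric acid, was at 93.3, 100.2 and 81.9 CPM in progenitor and 4.63, 4.29 and 4.45 CPM in intermediate libraries, which for Xdh were the lowest and not the nearest. The membrane proteins Tmeff2 and Lrrn4cl were at 346, 352 and 357 and 208, 235 and 226 CPM in progenitor libraries, with smallest log2 fold changes of 2.26 ± 0.16 against intermediate and 3.00 ± 0.14 against smooth muscle. Rtl3, a gene derived from a retrotransposon, the aminopeptidase gene Lvrn and the chemokine gene Ccl7 completed the 20.

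Genes at a lower mean level held the widest separations. In all, 8 genes were at least 16-fold higher by the fit against each population: Ly6a, Ly6c1, Scara5, Akr1c18, Il1f10, Ackr2, Ren1 and the noncoding Gm49212, of which those outside the lists were named after their values were seen. Akr1c18, which inactivates progesterone, had 189, 235 and 188 counts in the progenitor libraries and at most 4 in any of the other 9. Ren1, the gene of renin that cleaves angiotensinogen, had 263, 487 and 329 counts in progenitor, 9, 16 and 22 in intermediate, 1, 0 and 3 in preadipocyte and 8, 35 and 26 in smooth muscle libraries. Il1f10, an interleukin-1 family cytokine, had 46, 50 and 56 counts in progenitor and at most 5 in any other library. Where a group holds 0 to 5 counts the fitted fold depends on the prior count, so counts are given here in its place.

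Matrix genes showed which parts of the fibroblast programme were particular to progenitors. Of 21 fibroblast genes tested, 20 were higher than the mean and 9 than in every population, against 18.8% and 4.16% of all genes. The median log2 fold change of the list was 1.89 against the mean and 0.60 against intermediate. Dcn, the collagen-binding proteoglycan decorin, was at 13369, 14184 and 12069 CPM in progenitor, 1196, 1404 and 1841 in smooth muscle, 2149, 2169.5 and 1696 in preadipocyte and 5367, 4793 and 5367 in intermediate libraries. Gsn, which encodes the actin-severing protein gelsolin, was at 4575, 4929 and 4466 CPM in progenitor, 542, 576 and 588 in smooth muscle, 1593, 1916 and 1353 in preadipocyte and 1164, 1072 and 996 in intermediate libraries. Both were highest in every progenitor library, with smallest log2 fold changes of 1.35 ± 0.16 against intermediate and 1.52 ± 0.14 against preadipocyte. The small proteoglycan genes Lum and Ogn and the surface proteoglycan gene Gpc3 were higher than in intermediate libraries by 0.92 ± 0.14, 0.68 ± 0.14 and 0.88 ± 0.15 on the log2 scale. Of 24 proteoglycan genes, 6 were higher than in every population, against 4.16% of all genes tested. All 6 calls were kept with each library left out.

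Collagens did not follow. Of 31 collagen genes, 13 were higher and 8 lower than the mean, against 18.8% and 19.1% of all genes. Of the 31, 2 (6.45%) were higher than in every population, near the 4.16% of all genes. Col5a3 was 1 of them, at 386, 352 and 381 CPM in progenitor and at most 112 CPM elsewhere. Col1a1, a chain of type I collagen, was lower than in intermediate libraries, at 23106, 22250.0 and 24761 against 65546, 70337 and 63519 CPM (log2 difference -1.51 ± 0.28, adjusted p = 0.00119). Elastin, from Eln, was lower than in intermediate and smooth muscle libraries by log2 differences of -1.998 ± 0.25 and -3.68 ± 0.26. Among 22 elastic fibre genes, the 5 that were higher than in every population were Mfap5, Fbln1, Fbln2, Emilin2 and Fbn2, which encode proteins associated with elastic fibres. The call of Fbn2 was lost with each progenitor, intermediate or smooth muscle library left out. Fbln2 was at 2347, 2433 and 2303 CPM in progenitor, 712, 779 and 793 in smooth muscle, 552, 815 and 436 in preadipocyte and 606, 572 and 481 in intermediate libraries. Its progenitor libraries stood alone at about the same distance from the 3 others (smallest log2 fold change 1.63 ± 0.18 against smooth muscle). Emilin2 was higher by 1.45 ± 0.20 against intermediate and Fbln1 by 1.003 ± 0.18 against intermediate.

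Some enzymes that cut matrix and some proteins that hold them in check were apart. Of 30 matrix protease genes, 6 were higher than in every population (10 with TMM factors over all genes), and of 30 peptidase and inhibitor genes 8 were, against 4.16% of all genes. Against intermediate libraries the median log2 fold changes of these lists were 0.02 and 0.36. Mmp2, a gelatinase, was at 1788, 1802 and 1817 CPM in progenitor, 272, 278 and 296 in smooth muscle, 428, 535 and 359 in preadipocyte and 714, 708 and 704 in intermediate libraries. Plat, the tissue plasminogen activator, was at 719, 697 and 705 CPM in progenitor, 156, 179.9 and 179 in smooth muscle, 73.6, 98.6 and 68.8 in preadipocyte and 252, 236 and 226 in intermediate libraries. For both genes progenitor libraries were the highest and intermediate the next, with log2 differences of 1.35 ± 0.14 and 1.57 ± 0.14 (largest adjusted p = 3.84e-06 and 9.25e-07). Timp1, an inhibitor of such proteases, was higher by 0.77 ± 0.17 against intermediate. Serpina3n and Tfpi2, which block serine proteases, were higher by 1.16 ± 0.18 against intermediate and 1.10 ± 0.16 against intermediate. Tnxb and Thbs3, which encode tenascin X and thrombospondin 3, were higher by 0.95 ± 0.23 against intermediate and 0.99 ± 0.15 against intermediate, and Spon2, or spondin 2, by 1.40 ± 0.17 against intermediate. These were 3 of the 4 matricellular genes of 25 that were higher than in every population, and 1 other was lower than in every population. Over all genes tested the shares were 4.16% and 3.29%. The median log2 fold change of that list was -0.19 against intermediate. Its count of 4 higher was 6 without preadipocyte replicate 2 or 3, and 3 without progenitor replicate 1 or 3 or smooth muscle replicate 1.

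Chemokines and cytokines were the list with the largest share of members higher than in every population after the progenitor markers. Of 25 genes, 21 were higher than the mean and 14 (56.0%) higher than in every other population, against 4.16% of all genes tested. With library size alone as the scaling, 9 of the 25 were. The median log2 fold change was 1.12 against intermediate, 1.34 against preadipocyte and 1.70 against smooth muscle libraries. Ccl2, a chemokine for monocytes, was at 666, 717 and 852 CPM in progenitor, 162, 163 and 233 in smooth muscle, 355, 233 and 259 in preadipocyte and 137, 105 and 132 in intermediate libraries. Cxcl1, a chemokine for neutrophils, was at 2211, 2449 and 2791 CPM in progenitor, 558, 556 and 729 in smooth muscle, 1518, 1216 and 1107 in preadipocyte and 927, 738 and 969.5 in intermediate libraries. Preadipocyte libraries came second for both genes and intermediate or smooth muscle libraries were lowest, with smallest log2 fold changes of 1.40 ± 0.19 against preadipocyte and 0.96 ± 0.16 against preadipocyte (largest adjusted p = 1.15e-05 and 0.00014).

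For the interleukins the order was another. Il33, an alarmin that acts on innate lymphoid cells, was at 475, 439 and 550.5 CPM in progenitor, 30.3, 39 and 31.9 in smooth muscle, 36.2, 42.8 and 41.9 in preadipocyte and 175, 167 and 153 in intermediate libraries. Il6 was at 496, 432 and 531 CPM in progenitor, 72.2, 86.6 and 82.7 in smooth muscle, 48.7, 36.1 and 46.3 in preadipocyte and 232, 192 and 220.2 in intermediate libraries. Intermediate libraries came second for both, and the log2 differences were 1.57 ± 0.14 and 1.18 ± 0.14. Csf1, a growth factor for macrophages, was higher by 1.259 ± 0.16 against intermediate, Tnfsf13b, a survival factor for B cells, by 2.20 ± 0.31 against intermediate, and Ccl11, a chemokine for eosinophils, by 0.74 ± 0.14 against intermediate. The calls for Cxcl2, Cxcl10 and Kitl were lost with library size alone, and those for Cxcl12, Cxcl13 and Cxcl5 with several of the single libraries left out.

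Immune cell markers were not higher as a group. Of 16 such markers, 2 were higher and 4 lower than the mean, against 18.8% and 19.1% of all genes. Their summed level was 51.8 to 60.4 CPM in progenitor libraries and 70.8 to 101 in the others. Adgre1, a macrophage gene, was at 0, 0.137 and 0.067 CPM in progenitor libraries. Ptprc, the pan-leukocyte gene, was at 0.31, 0.41 and 1.14 CPM in progenitor, and Cd68, a macrophage gene, at 8.93, 9.16 and 8.51 CPM against 11.5, 7.07 and 9.72 in intermediate libraries. In sorted bulk samples, fewer cells of a type and less RNA per cell cannot be told apart.

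Of 23 complement genes, 13 were higher than the mean and 10 than in every population, against 18.8% and 4.16% of all genes. The 10 include C1qtnf7, a relative of C1qtnf3 above and not a component of complement. Of the 10 calls, 7 were kept with each library left out, among them those of C1ra, C1s1, C4b, C7, Serping1 and Cd55. Serping1, the inhibitor of C1, was at 2346, 2219 and 2317 CPM in progenitor, 414, 379 and 487 in smooth muscle, 170.0, 158 and 142 in preadipocyte and 794, 729.8 and 807 in intermediate libraries. C4b, cleaved by C1s, was at 213, 198 and 207 CPM in progenitor, 82.7, 80.7 and 85.4 in smooth muscle, 56.8, 61.6 and 39 in preadipocyte and 26.6, 19.2 and 14.7 in intermediate libraries. The nearest population was intermediate for Serping1 and smooth muscle for C4b, with log2 differences of 1.56 ± 0.13 and 1.31 ± 0.19 (largest adjusted p = 4.49e-07 and 3.84e-05). C7, a part of the membrane attack complex, was at 25.1, 28 and 25.3 CPM in progenitor and at most 4 CPM elsewhere. C3, the central component, was not part of the pattern: smooth muscle libraries were highest with 919.5, 989 and 1155 CPM, against 376, 384 and 648 in progenitor. Cfd, the alternative pathway protease made by fat cells, was at 0.388, 0.41 and 1 CPM in progenitor and 48, 82.7 and 54.4 in preadipocyte libraries.

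Receptors for immune signals were higher in 18 of 24 cases than the mean and in 5 than in every population (8 with TMM factors over all genes). The shares over all genes tested were 18.8% and 4.16%. Ackr2, a receptor that takes up and degrades chemokines such as Ccl2 and Ccl7, was at 7.61, 8.07 and 5.76 CPM in progenitor, 0.287, 0.509 and 0.0707 in smooth muscle, 0.162, 0.121 and 0.0557 in preadipocyte and 0.446, 0.15 and 0.363 in intermediate libraries. Every progenitor library was above 5 CPM and every other at about 0.5 CPM or below. Il1rl2, the receptor for interleukin 36, was higher by 1.68 ± 0.14 against intermediate, Il17ra by 0.87 ± 0.15 against preadipocyte and Il4ra by 0.94 ± 0.15 against intermediate on the log2 scale.

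**Figure D3:**
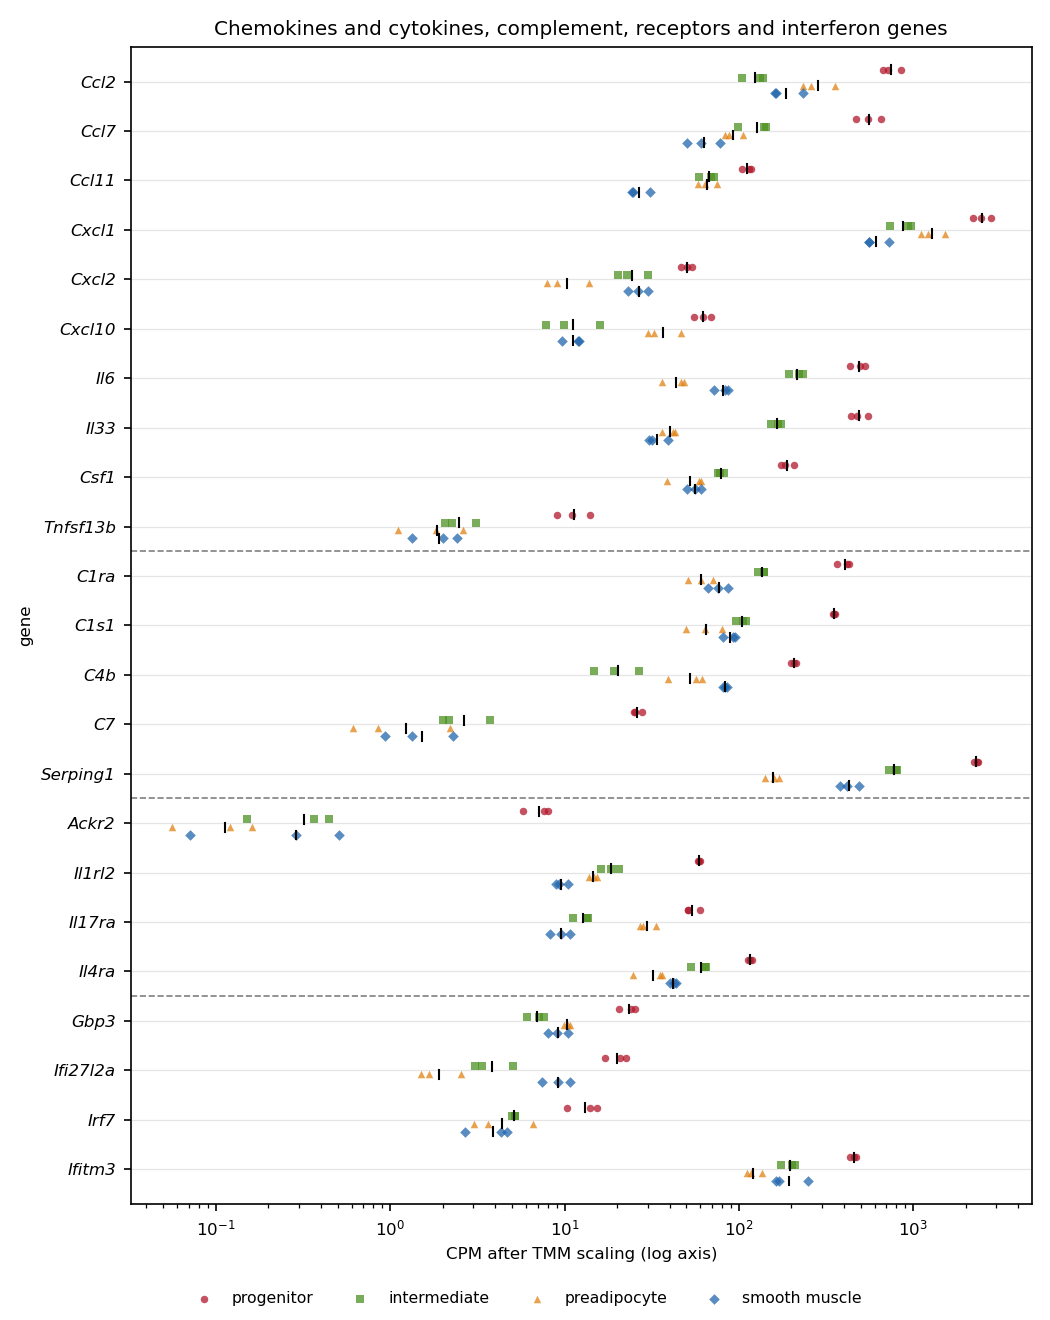
CPM after TMM scaling (log axis) of 23 genes, 1 point per library and a bar at each mean of 3. Dashed lines part chemokines and cytokines, complement, receptors and interferon genes; in each of the 23 rows the 3 progenitor points lie to the right of the other 9.

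Interferon response genes were higher than the mean in 16 of 22 cases, against 18.8% of all genes tested. In 8 cases they were higher than in every population, against 4.16% of all genes. Those kept with each library left out were Gbp3, Ifi27l2a, Irf7 and Ifitm3. Ifitm3, a membrane protein that blocks virus entry, was at 432, 459 and 471 CPM in progenitor, 163, 169 and 250.0 in smooth muscle, 136, 111 and 117 in preadipocyte and 210.3, 175 and 202 in intermediate libraries. Gbp3, a guanylate-binding protein, was at 24.1, 20.6 and 25.3 CPM in progenitor, 10.5, 8.08 and 9.04 in smooth muscle, 10.7, 10.5 and 9.97 in preadipocyte and 7.58, 6.09 and 7.18 in intermediate libraries. Progenitor libraries were highest for both, with smallest log2 fold changes of 1.21 ± 0.16 against intermediate and 1.16 ± 0.16 against preadipocyte. Mx1, which interferon induces, differed from the mean by -0.51 ± 0.60 on the log2 scale and did not pass the test (adjusted p = 0.531).

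A run of neighbouring genes related to these stood out on chromosome 1, where the 7 consecutive tested genes from 173723427 to 174031810 were all higher than in every population. They were Ifi207, Ifi204, Mndal, Ifi211, Ifi203, Ifi202b and Ifi205, which belong to the interferon-inducible p200 family. They were chosen after the calls were seen, as were the other runs given here. Ifi202b was at 50.3, 48.8 and 62.8 CPM in progenitor, 12, 13.2 and 13.8 in smooth muscle, 8.96, 9.91 and 19.6 in preadipocyte and 1.69, 1.35 and 3.45 in intermediate libraries. Ifi205, lowest in level, was at 2.64, 2.39 and 3.35 CPM in progenitor and at most 0.31 CPM in any other library. Members of this family share sequence and their reads may be split among them, and the exons of Mndal and Ifi203 overlap.

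Promoters of 3 genes of this run, of Gbp3 and of Il6 are shown because they hold the letters of motifs that interferon and inflammatory signals are known to act through. Each is the 250 bases before the RefSeq gene start on GRCm38.p6, 5′ to 3′ on the strand of the gene. Capitals mark matches, on either strand, to GAAANNGAAA (interferon response type), TGANTCA (AP-1 type), GGGNNTTTCC (NF-kB type), TTGCNCAA (C/EBP type) and TATAAA, and matches next to each other can join.
Ifi205 (chr1:174031756-174032005, minus strand): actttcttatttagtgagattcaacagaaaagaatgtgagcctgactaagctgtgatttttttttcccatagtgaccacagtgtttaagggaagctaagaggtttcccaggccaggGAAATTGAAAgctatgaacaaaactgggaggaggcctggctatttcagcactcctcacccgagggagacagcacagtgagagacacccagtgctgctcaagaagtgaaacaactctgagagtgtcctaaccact
Ifi211 (chr1:173913047-173913296, minus strand): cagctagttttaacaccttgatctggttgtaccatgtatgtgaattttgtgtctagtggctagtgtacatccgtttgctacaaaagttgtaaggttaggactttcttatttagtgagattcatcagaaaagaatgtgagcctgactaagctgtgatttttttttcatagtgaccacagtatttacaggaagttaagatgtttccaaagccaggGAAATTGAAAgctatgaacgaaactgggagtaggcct
Mndal (chr1:173880188-173880437, minus strand): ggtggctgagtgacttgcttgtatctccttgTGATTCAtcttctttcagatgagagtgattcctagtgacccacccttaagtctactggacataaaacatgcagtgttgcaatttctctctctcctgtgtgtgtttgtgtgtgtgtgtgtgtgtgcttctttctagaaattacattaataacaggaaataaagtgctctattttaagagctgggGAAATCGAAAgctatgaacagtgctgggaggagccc
Gbp3 (chr3:142559794-142560043, plus strand): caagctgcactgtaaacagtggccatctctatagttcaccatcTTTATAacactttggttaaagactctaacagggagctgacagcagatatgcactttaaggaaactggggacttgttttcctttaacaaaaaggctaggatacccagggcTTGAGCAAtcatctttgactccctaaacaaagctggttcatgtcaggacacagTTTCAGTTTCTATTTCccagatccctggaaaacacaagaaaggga
Il6 (chr5:30012864-30013113, plus strand): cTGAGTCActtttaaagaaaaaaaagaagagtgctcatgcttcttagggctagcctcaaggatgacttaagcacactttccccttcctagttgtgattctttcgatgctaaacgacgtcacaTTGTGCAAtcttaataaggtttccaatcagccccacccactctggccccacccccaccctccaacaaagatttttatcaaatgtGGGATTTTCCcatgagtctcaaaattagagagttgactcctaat

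GAAANNGAAA lay 28 to 37 bases before the start of Ifi211, 27 to 36 before Mndal, 125 to 134 before Ifi205 and, in 2 overlapping copies, 30 to 45 before Gbp3. Il6 held the AP-1, C/EBP and NF-kB types together. Among 13612 tested genes with a RefSeq promoter, the interferon type was found in 2.67%, among 214 at least 2-fold higher than in every population in 7.01%, and among 332 at least 2-fold lower in 1.51%. The AP-1 type was found in 5.15%, 9.81% and 4.52%, the C/EBP type in 2.23%, 4.21% and 1.51%, and the NF-kB type in 1.39%, 1.40% and 1.20% of the same 3 sets. TATAAA was found in 8.1%, 11.7% and 8.73% of them. Among 671 genes higher than in every population by any fold, the interferon, AP-1, C/EBP and NF-kB types were found in 5.22%, 6.11%, 2.98% and 2.24%. Among 484 lower by any fold they were found in 1.45%, 5.37%, 1.45% and 1.03%. A match describes letters and not a site in use.

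In all, 14 runs of at least 3 neighbouring tested genes were higher than in every population, several of them families of similar genes. On chromosome 11, Ccl2, Ccl7 and Ccl11 lie within 27385 bases. On chromosome 6, C1rl, C1ra, C1s1, C1rb and C1s2 lie within 142973 bases, with smallest log2 fold changes of 0.93 to 1.76. Cxcl1 and Cxcl2 on chromosome 5 have the predicted Gm22816 between them. Rtl3, Lpar4, P2ry10 and P2ry10b form a run of 4 on the X chromosome, and Ly6a and Ly6c1 one of 3 with the predicted Gm8000 on chromosome 15.

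Wnt pathway genes were called in both directions. Of 37 Wnt pathway genes, 18 were higher and 9 lower than the mean, against 18.8% and 19.1% of all genes. Of the 37, 8 were higher and 3 lower than in every population, against 4.16% and 3.29% of all genes. The median log2 fold change was -0.22 against intermediate libraries. Wnt5a, a ligand of the noncanonical branch, was at 221, 224 and 242 CPM in progenitor, 23.4, 25 and 33 in smooth muscle, 31.1, 36.2 and 21.2 in preadipocyte and 98.7, 108 and 109 in intermediate libraries. Dkk2, a secreted antagonist of Wnt coreceptors, was at 150.3, 139 and 167 CPM in progenitor, 5.02, 4.9 and 5.65 in smooth muscle, 42.1, 52 and 39.6 in preadipocyte and 14.3, 15 and 10.9 in intermediate libraries. Progenitor libraries were highest for both, but the second place went to intermediate for Wnt5a and to preadipocyte for Dkk2, with log2 differences of 1.12 ± 0.17 and 1.77 ± 0.15. The ligands Wnt11 and Wnt2 were higher by 1.37 ± 0.18 against preadipocyte and 2.36 ± 0.29 against smooth muscle, and the inhibitor Sfrp1 by 0.68 ± 0.16 against intermediate. Sfrp5, another inhibitor, and Nkd2, a feedback gene, were lower than in every population, with smallest differences of -2.19 ± 0.55 against intermediate and -0.92 ± 0.26 against preadipocyte. Axin2, a common target of the canonical branch, was lower than the mean by a log2 difference of -1.12 ± 0.35 and did not differ from intermediate beyond the spread (adjusted p = 0.78).

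Secreted antagonists of bone morphogenetic proteins formed a like group. Of 38 TGF-beta and BMP pathway genes, the 5 higher than in every population were the ligand gene Bmp7 and the antagonist genes Fst, Bmper, Nbl1 and Chrd. Over all genes tested, 4.16% were higher and 3.29% lower than in every population. Bmper was at 294, 270.5 and 319 CPM in progenitor, 17.5, 17.7 and 17 in smooth muscle, 163, 224 and 149.7 in preadipocyte and 30.3, 28.5 and 28.3 in intermediate libraries. Nbl1 was at 273, 291 and 269 CPM in progenitor, 104, 107 and 143 in smooth muscle, 19.9, 21 and 14.2 in preadipocyte and 48.8, 37.1 and 39.3 in intermediate libraries. Progenitor libraries were above all others in both, with preadipocyte nearest for Bmper (0.72 ± 0.14) and smooth muscle nearest for Nbl1 (1.24 ± 0.17). The call for Chrd, at 0.64 ± 0.17 against intermediate, was lost without progenitor or intermediate replicate 2. Bmpr1b, a receptor, was lower than in every population, at 1.16, 1.03 and 2.01 CPM in progenitor and 19.4, 20.2 and 15.8 in smooth muscle libraries. Of the 3 lower genes of this list, 1 was left without progenitor replicate 1.

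Fgf7, a keratinocyte growth factor made by mesenchyme, was at 113, 108 and 126 CPM in progenitor, 4.59, 5.41 and 4.38 in smooth muscle, 16.5, 17.5 and 16.2 in preadipocyte and 46.6, 43.7 and 44.9 in intermediate libraries. Igf1, the insulin-like growth factor, was at 833, 736 and 1004 CPM in progenitor, 73.7, 103 and 92.5 in smooth muscle, 268, 297 and 244 in preadipocyte and 261, 254 and 249 in intermediate libraries. Both were highest in every progenitor library, with smallest log2 fold changes of 1.36 ± 0.12 against intermediate and 1.67 ± 0.15 against preadipocyte (largest adjusted p = 1.14e-06 and 7.44e-07). Angptl1, an angiopoietin-like protein, was higher by 1.74 ± 0.17 against intermediate. Fgf18 was at 17.6, 43.9 and 36.6 CPM in progenitor libraries, where replicate 1 was the lowest too, and at most 17 CPM elsewhere. Pdgfa and Pdgfc, which encode platelet-derived growth factors, were lower than in every population: Pdgfa was at 2.25, 3.01 and 2.81 CPM in progenitor against 42.2, 38.7 and 51.9 in smooth muscle libraries, and Pdgfc at 4.04, 4.51 and 2.88 against 21.4, 26.7 and 13.6 in preadipocyte libraries. In all, 6 of 33 growth factor ligand genes were higher and 2 lower than in every population, against 4.16% and 3.29% of all genes, and 4 were higher without progenitor or intermediate replicate 2.

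Dlk1, a preadipocyte surface protein that slows fat cell formation and is imprinted, was at 2212, 2156 and 2449 CPM in progenitor, 87.4, 96 and 138 in smooth muscle, 707, 505 and 403 in preadipocyte and 634, 552 and 635 in intermediate libraries. It was highest in progenitor and not in preadipocyte libraries, by 2.08 ± 0.20 on the log2 scale, and the difference from intermediate libraries was 1.90 ± 0.20 (largest adjusted p = 5.88e-06). Of 21 listed markers of committed preadipocytes, Dlk1 among them, 13 were higher and 5 lower than the mean, against 18.8% and 19.1% of all genes. In 4 cases they were higher and in 1 lower than in every population, against 4.16% and 3.29% of all genes. Of these 4 calls, 2 were kept with each library left out. The median log2 fold change of that list was 1.33 against the mean and 0.80 against preadipocyte libraries. Gas1, a Hedgehog coreceptor, was at 279, 569.6 and 680.3 CPM in progenitor and 226, 194 and 212 in intermediate libraries, with replicate 1 again the lowest progenitor library. Igfbp2, a binding protein for insulin-like growth factors, was among the 20 genes most clearly lower, at 1.71, 3.83 and 5.69 CPM in progenitor and 247, 272 and 314 in smooth muscle libraries. Igfbp3 was called higher, but its progenitor values of 311, 923 and 974 CPM overlapped the 431, 394 and 406 CPM of intermediate libraries. Its call was lost with several libraries left out.

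Enzymes and receptors of small mediators were also higher. Aldh1a3, which makes retinoic acid, was at 98.6, 76.5 and 83 CPM in progenitor, 3.23, 4.58 and 6.64 in smooth muscle, 5.4, 8.34 and 6.68 in preadipocyte and 5.88, 2.71 and 4.91 in intermediate libraries. Each progenitor library was at least 9 times as high as any other (smallest log2 fold change 3.66 ± 0.27 against preadipocyte, largest adjusted p = 5.79e-08). Of 18 retinoid genes 4 were higher than in every population, against 4.16% of all genes tested. The count was 2 without progenitor replicate 2 or with library size alone, and 7 with TMM factors over all genes. Of 25 genes of lipid and nucleotide mediators, 9 were higher than in every population, against the same 4.16%. Entpd2, an enzyme that cleaves ATP outside the cell, was at 177, 206 and 193 CPM in progenitor, 16.9, 18.2 and 23.4 in smooth muscle, 19.8, 22.6 and 16.3 in preadipocyte and 54.7, 55.3 and 62.9 in intermediate libraries. The progenitor libraries stood above intermediate by 1.74 ± 0.15. The lysophosphatidic acid receptor genes Lpar1 and Lpar4 were higher by 0.49 ± 0.13 against intermediate and 0.83 ± 0.16 against preadipocyte, Ptges, which makes prostaglandin E2, by 0.83 ± 0.14 against preadipocyte, and Sphk1, which makes sphingosine phosphate, by 1.21 ± 0.30 against intermediate. Of 35 axon guidance genes, 4 were higher and 4 lower than in every population, against 4.16% and 3.29% of all genes. The higher ones were all ligand genes: Sema3a by 1.12 ± 0.17 against smooth muscle, Sema3c by 0.73 ± 0.17 against intermediate and Sema3d by 1.01 ± 0.15 against smooth muscle, and the membrane ligand gene Efnb1 by 1.22 ± 0.15 against preadipocyte. The lower ones were the receptor genes Plxna2, Plxnd1 and Robo4 and the semaphorin gene Sema6d. The count of 4 lower was 1 without intermediate replicate 2, and 2 without intermediate replicate 1, preadipocyte replicate 2 or any 1 progenitor library, or with TMM factors over all genes.

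Transcription factors were apart in either direction. Of 45 stromal transcription factor genes, 23 were higher than the mean, and 5 were higher and 3 lower than in every population, against 4.16% and 3.29% of all genes. Of the 5, the call of Creb5 was kept with each library left out. The count of 5 was 1 without progenitor replicate 1 or 2 or intermediate replicate 2, 2 without progenitor replicate 3 or intermediate replicate 1 or 3, 3 without smooth muscle replicate 1 or 2, and 8 without preadipocyte replicate 1. Creb5 was at 149, 144 and 167 CPM in progenitor, 111, 112 and 118 in smooth muscle, 33.6, 31.4 and 26.5 in preadipocyte and 84.2, 81.8 and 80.0 in intermediate libraries. Smooth muscle libraries were close behind, by 0.43 ± 0.12 on the log2 scale, and the call was lost with library size alone. Cebpd, an early factor of fat cell formation and of inflammation, was higher by 1.01 ± 0.16 against intermediate (largest adjusted p = 0.00035). The factors lower than in every population were Gata2, Tbx20 and Mkx. Gata2 was at 0.31, 0.684 and 0.268 CPM in progenitor, 10.6, 10.9 and 7.91 in preadipocyte and 27.2, 30.7 and 37.5 in smooth muscle libraries.

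Immediate early genes respond within minutes to growth signals and are known to rise on tissue digestion. Of 23 such genes, 12 were higher than the mean and 7 than in every population, against 18.8% and 4.16% of all genes. Dusp1, a phosphatase of this class, was at 1878, 1908 and 1831 CPM in progenitor, 1127, 1160.3 and 1176 in smooth muscle, 441, 552 and 444 in preadipocyte and 1352, 1225 and 1335 in intermediate libraries. The progenitor libraries were highest, with a smallest log2 fold change of 0.52 ± 0.12 against intermediate. Zfp36 was higher by 0.70 ± 0.16 against intermediate and Socs3 by 0.77 ± 0.16 against intermediate. Egr1, from the same class, did not differ from intermediate libraries beyond the spread (0.07 ± 0.18, adjusted p = 0.8). The part of tissue handling in the chemokine and cytokine values above was not tested.

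**Figure D4:**
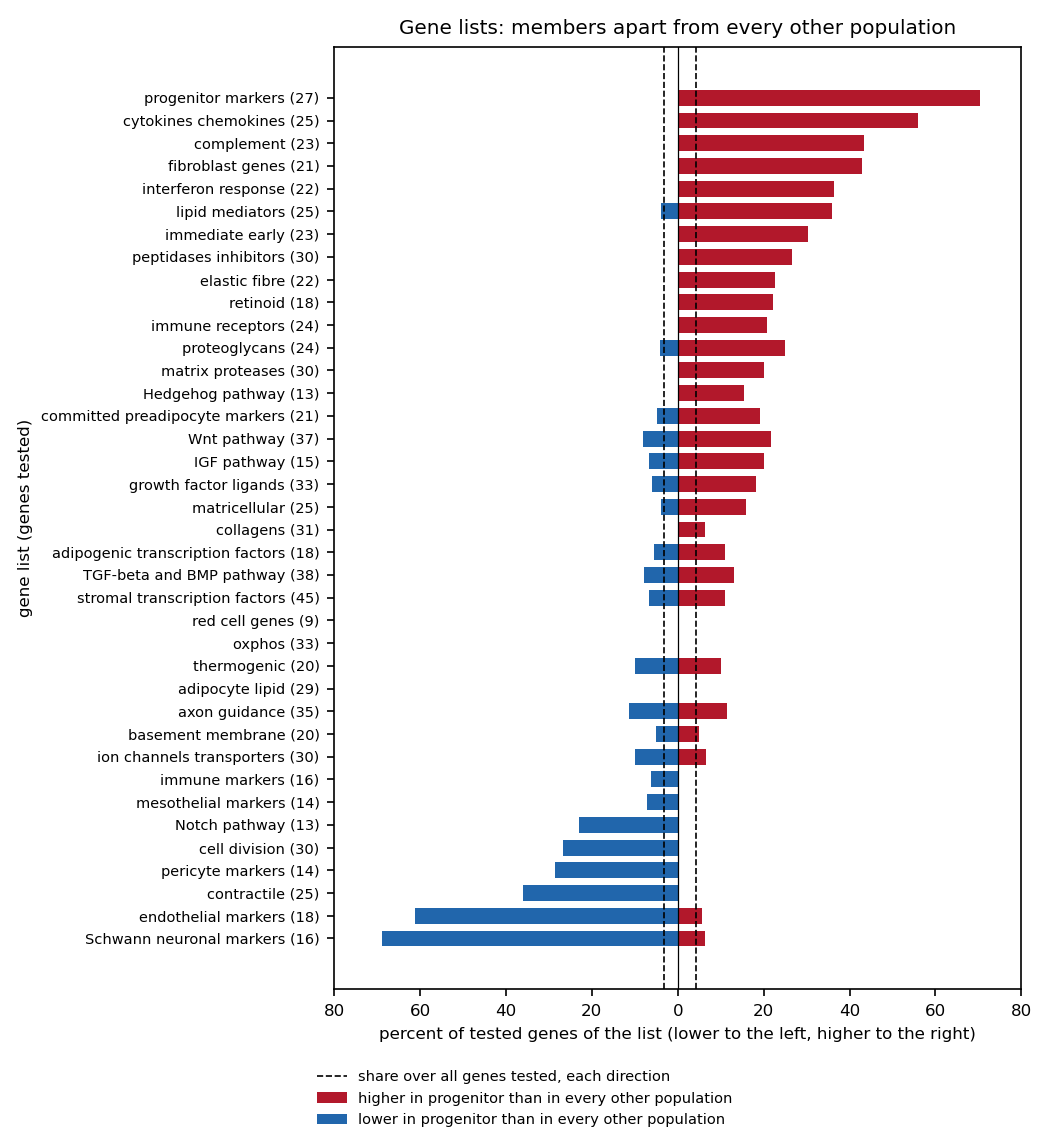
Bars give, for each of 38 gene lists, the percent of tested members higher (right) or lower (left) in progenitor libraries than in every other population, with the number tested in brackets. Dashed lines mark the same shares over all 21285 genes tested, 4.16% and 3.29%; progenitor markers, chemokines and complement reach farthest to the right and Schwann, endothelial and contractile lists farthest to the left.

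Contractile and mural cell genes fell below every population in 9 of 25 and 4 of 14 cases, where 3.29% of all genes tested did. Of the 25 contractile genes, 21 were lower than the mean, against 19.1% of all genes. Myh11, the smooth muscle myosin, was at 1.71, 2.12 and 2.48 CPM in progenitor libraries, against 1288, 1212 and 894 in smooth muscle, 16.9, 19.4 and 14.1 in preadipocyte and 146, 115 and 75.7 in intermediate libraries. Acta2, the smooth muscle actin, was at 36.9, 37.9 and 24 CPM in progenitor libraries, against 5541, 5143 and 5320.1 in smooth muscle, 110.0, 138 and 72.8 in preadipocyte and 808, 604 and 595 in intermediate libraries. Progenitor libraries were lowest in both, and preadipocyte, not smooth muscle, was the nearest population, with log2 differences of -2.98 ± 0.27 and -1.70 ± 0.22 (largest adjusted p = 1.64e-07 and 9.88e-06). Mcam, an adhesion molecule of pericytes and smooth muscle, was at 10.5, 8.41 and 12.2 CPM in progenitor and above 42 CPM in all others. Kcnj8, which is found in pericytes too, was not lower but at 133, 135 and 107 CPM in progenitor and 109, 105 and 119.6 CPM in intermediate libraries, and Rgs5 was lower in preadipocyte than in progenitor libraries.

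The gene with the widest difference among the 20 was Tinagl1, a matrix protein of vessel walls, at 1.16, 1.71 and 1.81 CPM in progenitor, 277, 271 and 283 in smooth muscle, 13, 11.4 and 13.8 in preadipocyte and 28.7, 20.8 and 16.9 in intermediate libraries. Kcnk3, a potassium channel of smooth muscle and brown fat, was at 1.79, 2.87 and 2.21 CPM in progenitor, 80.9, 77.2 and 106 in smooth muscle, 52.7, 45.8 and 21.1 in preadipocyte and 23.6, 15.8 and 15.5 in intermediate libraries. Progenitor libraries were below all others in both, with smallest differences of -3.01 ± 0.22 against preadipocyte and -2.99 ± 0.33 against intermediate (largest adjusted p = 1.89e-08 and 9.85e-06). Kit, the stem cell factor receptor, differed by -1.97 ± 0.27 against intermediate, and its ligand gene Kitl by 0.74 ± 0.17 against smooth muscle. Tnmd, the tendon protein tenomodulin, was at 8.46, 8.62 and 6.23 CPM in progenitor and 83.6, 58.4 and 55.8 in preadipocyte libraries. Cav2, of the caveolae, and Itga6, the laminin receptor chain, differed by -1.57 ± 0.26 against intermediate and -1.57 ± 0.34 against intermediate.

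**Figure D5:**
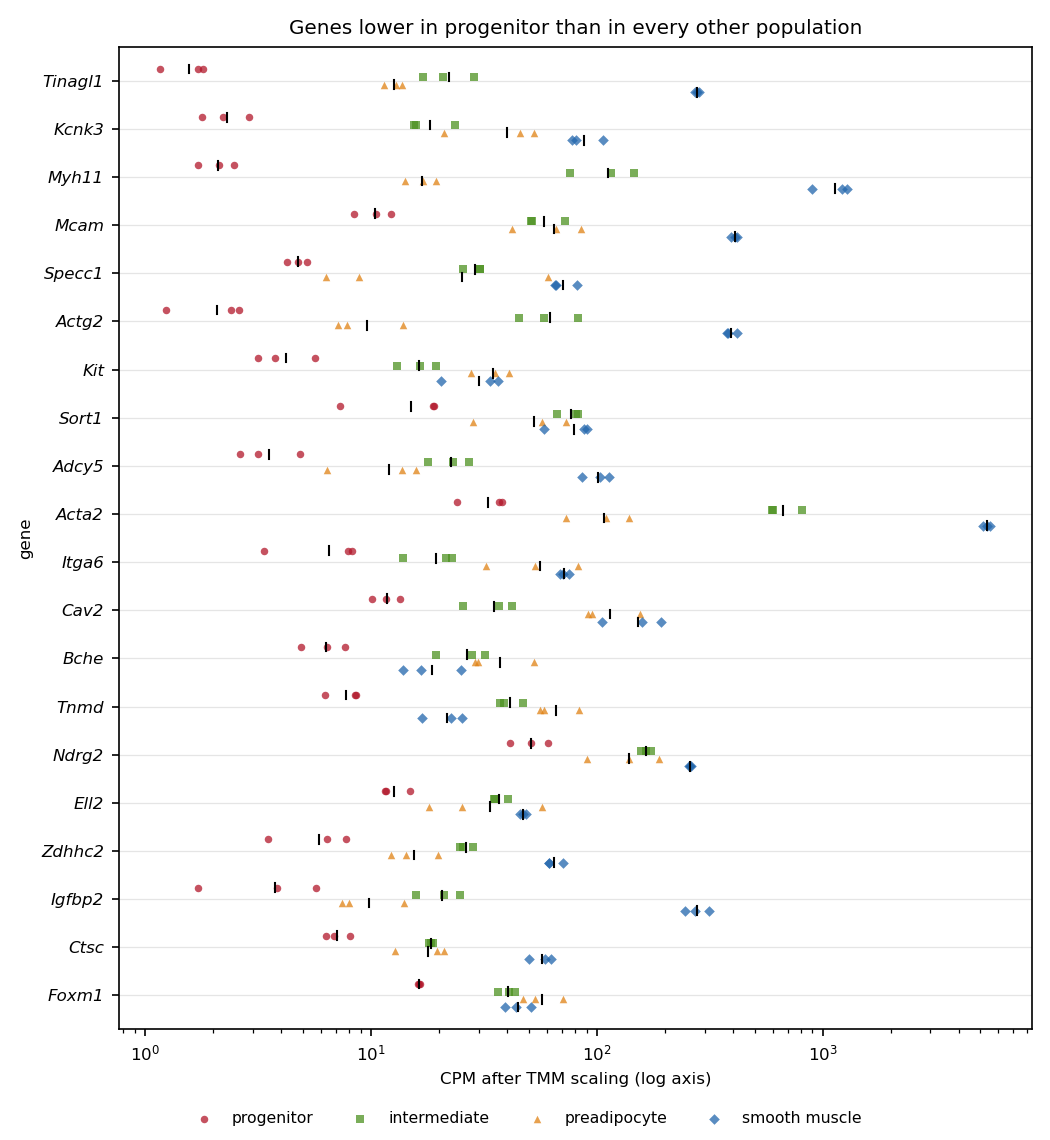
CPM after TMM scaling (log axis) of the 20 genes with the largest smallest difference among those lower in progenitor libraries than in every other population, 1 point per library and a bar at each mean of 3. In each row the 3 progenitor points lie to the left of the other 9, and preadipocyte replicate 3 lies apart from its group for Specc1 and Ell2.

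Markers of nerve and glia were lower in nearly every case. Of 16 Schwann and neuronal genes, 15 were lower than the mean and 11 lower than in every population. The shares over all genes tested were 19.1% and 3.29%. The summed level of the list was 36.4 to 42.9 CPM in progenitor and 991 to 1295 CPM in smooth muscle libraries. Th, the enzyme that starts catecholamine synthesis in sympathetic neurons, was at 0.31, 0.205 and 0.469 CPM in progenitor, 82.5, 116 and 114 in smooth muscle, 14.3, 15.8 and 11.4 in preadipocyte and 3.21, 1.2 and 0.818 in intermediate libraries. Progenitor libraries were the lowest for Th and smooth muscle libraries the highest. Sox10, a factor of Schwann cells, had 0 counts in progenitor replicates 1 and 2, where 3 counts would have been 0.203 and 0.178 CPM by library size, 0.201 CPM in replicate 3, and 9.97, 9.61 and 10.6 CPM in smooth muscle libraries. In fits to the 6 libraries of each pair alone, 6 of the 16 were lower than in every population. The mesothelial genes Msln and Upk3b were in all progenitor libraries, at 30.6, 23.7 and 57.9 and 23.8, 18.7 and 55.9 CPM, with smooth muscle libraries the highest at 291, 286 and 438 and 359.5, 392 and 506 CPM. Their part in the progenitor values was not tested.

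Of 13 Notch pathway genes, 11 were lower than the mean, against 19.1% of all genes tested. The median log2 fold change over the 13 was -1.31 against intermediate, -2.47 against smooth muscle and 0.26 against preadipocyte libraries. Of the 13, 3 were lower than in every population, against 3.29% of all genes. That count was 5 without preadipocyte replicate 3 and 4 without intermediate replicate 3. It was 2 without any 1 progenitor or smooth muscle library, intermediate replicate 1 or 2, or preadipocyte replicate 1. With at least 5 CPM required in 3 libraries it was 1. Notch1 was at 20.9, 21.9 and 22.6 CPM in progenitor, 83.3, 71.2 and 72.1 in smooth muscle, 61.5, 50.2 and 28.5 in preadipocyte and 51.7, 50.2 and 35.2 in intermediate libraries. The progenitor libraries were the lowest and the smallest difference was -1.07 ± 0.22 against intermediate (largest adjusted p = 0.00296). The ligand gene Dll4 was at 0.543, 0.137 and 0.402 CPM in progenitor and 4.97, 4.11 and 2.67 in preadipocyte libraries. Jag1 was as low in preadipocyte as in progenitor libraries.

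Cell division genes were lower than the mean in 28 of 30 cases and lower than in every population in 8. The shares over all genes tested were 19.1% and 3.29%. Mki67, the proliferation antigen, was at 50.8, 53.2 and 42.1 CPM in progenitor, 124, 101 and 110.4 in smooth muscle, 213, 186 and 397 in preadipocyte and 98.7, 91 and 82.9 in intermediate libraries. Foxm1, a factor that drives mitotic genes and 1 of the 20 genes most clearly lower, was at 16.4, 16.1 and 16.5 CPM in progenitor, 51.1, 44 and 39.2 in smooth muscle, 53.4, 70.5 and 47.3 in preadipocyte and 43.6, 40.8 and 36.4 in intermediate libraries. Preadipocyte libraries were highest in both genes and intermediate nearest to progenitor, with log2 differences of -0.90 ± 0.22 and -1.30 ± 0.16 (largest adjusted p = 0.00818 and 3.2e-05). The count of 8 was 5 without intermediate replicate 1 or progenitor replicate 3, and 2 with TMM factors taken over all genes.

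Several genes of the fat cell placed progenitors between populations and not apart from them. Pparg, the factor that drives fat cell formation, was at 58.2, 54.9 and 51.6 CPM in progenitor, 5.02, 3.18 and 2.97 in smooth muscle, 286, 395 and 205 in preadipocyte and 8.64, 8.95 and 7.09 in intermediate libraries. Progenitor libraries were second to preadipocyte libraries, lower by a log2 difference of -2.43 ± 0.21 and higher than intermediate by 2.73 ± 0.23. Adipoq and Fabp4 took the same order, with 61.9, 74.9 and 41.9 and 205, 236 and 189.8 CPM in progenitor libraries. Ucp1, the uncoupling protein of brown fat, was at 6.44, 6.02 and 3.62 CPM in progenitor and 145, 135 and 77.5 in preadipocyte libraries. Of 29 lipid genes of the fat cell, 5 were higher and 11 lower than the mean, against 18.8% and 19.1% of all genes.

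Genes that were higher than the mean by large folds but failed against 1 population were likewise not apart from every population. Against intermediate libraries these were led by Hhip, a Hedgehog-binding protein, Tspan11, Lgi2, Sfrp4 and Itm2a. Hhip was at 221, 199 and 186 CPM in progenitor, 11.9, 14.6 and 14.6 in smooth muscle, 1.78, 3.2 and 1.89 in preadipocyte and 573, 621 and 617 in intermediate libraries. It was in fact lower than in intermediate libraries, by a log2 difference of -1.58 ± 0.16. Itm2a differed from intermediate libraries by 2.27 ± 0.94 and failed with progenitor values of 196, 29.1 and 259.7 CPM (adjusted p = 0.0852). Its intermediate values were 37.9, 3.53 and 59.7 CPM, below the progenitor library of the same number each time. This fit had no term for the replicate number. Against preadipocyte libraries they were led by Hp, Lpl, Adh1, Tnfaip2 and Prlr. Lpl, the lipoprotein lipase, was at 1544, 1452 and 1544 CPM in progenitor, 48.6, 44.8 and 55 in smooth muscle, 1994, 2490.5 and 1591 in preadipocyte and 263, 223 and 229 in intermediate libraries. Progenitor and preadipocyte libraries were both far above the rest, and preadipocyte was higher by a small step (-0.42 ± 0.15, adjusted p = 0.0301). Against smooth muscle libraries they were led by Dpp4, Igfbp6, Efemp1, Sulf1 and Smpd3. Igfbp6 was at 176, 183 and 169.7 CPM in progenitor, 128, 124 and 195 in smooth muscle, 20.7, 20.005 and 15 in preadipocyte and 22.6, 16.4 and 18.1 in intermediate libraries. Progenitor and smooth muscle libraries overlapped, and did not differ beyond their spread (0.24 ± 0.18, adjusted p = 0.262).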

How the data were processed

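Raw counts per gene, whole numbers in 1 table of 12 columns, were deposited by the authors. The submitters' processing notes name STAR 2.5.2a, DESeq2 1.26.0 and the mm10 build, without their roles. The labels name no counting tool, annotation or strand setting. The libraries were made from poly(A) RNA with a SMART-Seq v4 kit, per the labels' protocols. Of 36512 gene identifiers, 36480 had a name in GENCODE M21.

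Groups came from the sample titles. Genes were filtered with filterByExpr by group, scaled by TMM and tested with edgeR 4.0.16 (quasi-likelihood, 2-sided, all 12 libraries in 1 fit, R 4.3.3), with Benjamini-Hochberg adjustment over 21285 genes. The common biological coefficient of variation was 0.2. Alternatives were DESeq2 1.42.0, limma 3.58.1 voom with quality weights, other scalings and filters, fits to 6 libraries, a replicate block and each library left out. Totals of 11701825 to 17123109 counts per library make 3 counts equal to 0.175 to 0.256 CPM, and such limits cover counting error only. Within groups, replicates differed by more than sampling noise (chi-square per degree of freedom 3.92 to 70.9), so all were kept apart.

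The members and the 38 gene lists were chosen with earlier results of these data known. Genes were named by 4 rules: the 20 with the largest smallest fold in each direction at a mean log2 CPM of at least 4 with no overlap, members of the lists, 10 markers, and the 5 leading genes per population among those higher than the mean but not than every population. Of 173 genes named in the report from these rules, 44 have exons that overlap another annotated gene, whose reads cannot be told apart without strand, and reads of similar genes (Ly6, Ifi200, C1r and C1s families) may be split between them.

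On simulated counts for the 21285 genes of this contrast, 48 of 100 genes raised 2-fold and 98 of 100 raised 4-fold were called against every population, as were 47 and 87 of 100 genes lowered 2-fold and 4-fold. These genes were drawn only from genes above a minimum mean level, and the other populations were given equal means for them. Recovery below that level, or where the other populations differ, was not simulated. Values of a few listed genes are not reported here. Promoter sequences came from RefSeq on GRCm38.p6.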

Additional observations from a re-analysis of the deposited data

How the results depend on the processing

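Counts at the adjusted p of 0.05 stayed within 1.5 times the reported ones under most alternatives, and the exceptions follow, whose cause was not tested unless the alternative tests fewer genes or samples by construction. With library size alone, 2503 genes were higher and 7223 lower than the mean. With TMM factors over all genes, which like the change of TMM reference was chosen after seeing the data, 6434 were higher than the mean, 1545 higher than in every population and 509 at least 2-fold higher than in every population. With at least 5 CPM required in 3 libraries, which tests fewer genes, 2480 were lower than the mean and 294 at least 2-fold lower than in every population. With fits to 6 libraries, which hold fewer samples, 281 were at least 2-fold lower than in every population. Leaving out 1 library at a time gave 3127 to 4393 genes higher and 2671 to 4481 lower than the mean, 597 to 1082 higher and 445 to 865 lower than in every population, and 270 to 324 higher and 338 to 621 lower at 2-fold; the lowest counts of lower genes came without progenitor replicate 1. Of the 885 higher and 700 lower genes, 492 and 317 were kept with each of the 12 libraries left out. Same-numbered samples correlated at -0.10 to 0.21 in their deviations over the genes tested. Whether they shared a litter or sort cannot be told from these values. With the replicate block 3942 genes were higher and 3942 lower than the mean, and 854 higher and 686 lower than in every population. A few genes named for not being apart changed sign against the mean. With library size alone, log2 fold changes were -0.16 for Fabp4 and -0.002 for Msln. With TMM factors over all genes that of Upk3b was 0.17, and with voom it was 0.094. With 1 library left out Msln ranged from -0.22 to 0.65 and Upk3b from -0.70 to 0.38. Of the 700 lower genes 23.6% reached a mean log2 CPM of 4, and of the 885 higher genes 60.0%.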

Other observations

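Itm2a, which encodes a membrane protein, was the 1 gene of 21285 with a difference between replicate numbers (edgeR quasi-likelihood, adjusted p = 0.018). It was at 196, 29.1 and 259.7 CPM in the progenitor libraries, 37.9, 3.53 and 59.7 in intermediate, 37.0, 11.9 and 43.5 in preadipocyte and 8.39, 1.97 and 39.8 in smooth muscle libraries. Replicate 2 was the lowest in every population.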
